A study of Mus musculus with 24 samples.

Results

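Endocannabinoid signaling genes were followed in the nucleus accumbens (NAc) of male and female mice with and without stress. The group held 7 genes, chosen by name: the receptor gene Cnr1 and the enzyme genes Dagla, Daglb, Mgll, Abhd6, Napepld and Faah. All 7 were found by their Ensembl identifiers among the 38293 genes of the mRNA count table, and all 7 were among the 18593 genes with enough reads to be tested. All 7 are protein coding, and gene coordinates are those of build NCBIM37. The mice were C57BL/6J, and were 9 weeks old according to the sample labels. Stressed mice of each sex received subchronic variable stress (SCVS), in which foot shock, tail suspension and restraint alternate over consecutive days, and nonstressed controls of each sex did not. The 4 groups were unstressed males, stressed males, unstressed females and stressed females, and all females were in estrus or proestrus. Each group had 3 mRNA libraries, and each library was 1 pool of 10 NAc punches from 5 mice, so that values describe pools and not single animals.

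Endocannabinoids are lipid messengers that a neuron makes on demand and that travel backward across the synapse to the presynaptic terminal. There they bind the CB1 receptor, the product of Cnr1, which is coupled to inhibitory G proteins and lowers transmitter release. The main ligands are 2-arachidonoylglycerol (2-AG), made by the diacylglycerol lipases Dagla and Daglb and broken down mostly by monoacylglycerol lipase (Mgll) and in part by Abhd6, and anandamide, made in part by the phospholipase D Napepld and broken down by fatty acid amide hydrolase (Faah). In the NAc this signaling is known for its part in synaptic depression at excitatory inputs, in reward and in responses to stress.

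Sequencing depth lay between 41076780 and 60867747 reads counted per library. Levels are given in CPM, the reads of a gene per 1000000 reads of tested genes after scaling by trimmed mean of M-values (TMM), and differences are log2 fold changes from a voom-limma fit of all 12 libraries. A gene was called at a Benjamini-Hochberg adjusted p under 0.05 over all tested genes. A lack of overlap between groups is only described, since its share among all tested genes was not counted. All 10 markers of striatal projection neurons were detected, with sums between 5645 and 7085 CPM, so the defining markers of the labelled tissue were present. The 10 markers of cortical glutamatergic neurons, cells of the neighboring cortex that also express Cnr1, summed to between 33.1 and 54.2 CPM in unstressed males, 75.8 and 240.05 CPM in stressed males, 50.7 and 419.6 CPM in unstressed females, and 74.2 and 150.8 CPM in stressed females. Their median difference was 2.52 with stress in males and 2.94 between the unstressed sexes on the log2 scale. None of the 10 was called by limma in any comparison, 2 and 7 of them had an unadjusted p under 0.05 in these 2 comparisons, and none was at 0. In bulk tissue a change in the number of cells of a type and a change in RNA per cell cannot be told apart.

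Mgll was the most abundant of the 7 transcripts and Napepld the least. Per kilobase of exon, which makes levels comparable between genes, Mgll reached 46.0 ± 2.77 CPM per kb (SD, n = 12 libraries of all groups). Abhd6 followed with 18.7 ± 0.889, Cnr1 with 17.5 ± 3.06 and Dagla with 14.0 ± 1.45 CPM per kb. Daglb stood at 4.80 ± 0.226, Faah at 2.28 ± 0.508 and Napepld at 1.58 ± 0.117 CPM per kb. The ranges of Mgll and Abhd6 did not overlap, nor did those of Dagla and Daglb or of Daglb and Faah. Cnr1 overlapped both Abhd6 and Dagla, whose own ranges lay apart (17.8 to 20.4 and 11.7 to 16.3 CPM per kb). Abhd6 was above Cnr1 in 8 of 12 libraries, which included all 3 of unstressed males but 1 of 3 of unstressed females. Cnr1 was above Dagla in 11 of 12. Faah and Napepld overlapped in range, although Faah was above Napepld within each of the 12 libraries. Dividing by the longest protein coding transcript instead raised Faah to 4.68 CPM per kb, since its exons of noncoding transcripts bring the annotated length from 3.827 to 7.834 kb. It left the order of the 7 means as it was. By that length Faah, at 3.35 to 7.46 CPM per kb, did not overlap Napepld, at 1.42 to 1.73 CPM per kb.

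**Figure D1:**
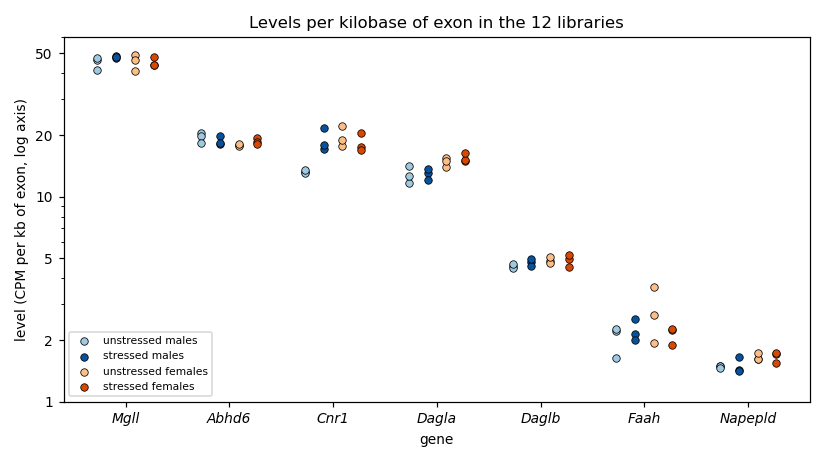
Level of each gene in CPM per kilobase of exon (log axis), with 1 point per library and colors for the 4 groups. Mgll lies above all other genes, and unstressed males have the lowest values of Cnr1. Abhd6, Cnr1 and Dagla lie between 11.7 and 22.1 CPM per kb, with Abhd6 above Dagla throughout.

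Cnr1 (ENSMUSG00000044288, NCBIM37 chr4:34011568-34035806, plus strand) was the member whose level differed most clearly between groups. Unstressed males had 84.8, 84.6 and 87.1 CPM, and stressed males had 110.3, 139.7 and 114.7 CPM. In females the level was 113.6, 121.6 and 142.1 CPM without stress and 112.7, 108.4 and 131.3 CPM with stress. Unstressed males were therefore the low group: none of their libraries reached the lowest of the other 9, while the other 3 groups overlapped one another. These values rest on 4161 to 7369 reads of Cnr1 per library.

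As the transcript on which the group differences turn, Cnr1 is shown with the 250 bases before its most upstream RefSeq start. The sequence was taken from the RefSeq promoter table of build GRCm38.p6 (chr4:33924014-33924263, plus strand). The same letters occur once on chromosome 4 of NCBIM37, at chr4:34010989-34011238, where they end 330 bases before the annotated gene, and thus outside its exons. Capitals mark the match to the 5-base core element of estrogen receptors (GGTCA or its reverse complement TGACC).
Cnr1 upstream of the start: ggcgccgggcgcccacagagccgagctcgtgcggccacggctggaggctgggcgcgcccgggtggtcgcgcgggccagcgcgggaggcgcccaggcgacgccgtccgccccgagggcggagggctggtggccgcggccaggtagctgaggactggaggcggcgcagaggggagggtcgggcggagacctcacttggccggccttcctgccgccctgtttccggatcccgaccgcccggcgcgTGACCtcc
The window held 79.2% G and C with 36 CpG pairs. The letters GGTCA or TGACC occurred in 35.2% of the 32851 windows of this length in the table. Neither the core element AGAACA of the glucocorticoid receptor (16.1% of windows, either strand) nor the core TGACG of the cAMP response element (17.8%) was present in these 250 bases. Windows were found for 6 of the 7 members, with no entry for Dagla. Of the 3 Cnr1 windows the most downstream also held GGTCA or TGACC. So did a window of each of Daglb, Abhd6, Napepld and Faah, but none of Mgll. AGAACA or its reverse complement occurred in a window of Mgll and in that of Faah, and in no window of the other members found. TGACG or its reverse complement occurred in none of the member windows.

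SCVS was followed by a higher Cnr1 level in males. The mean level was 85.5 ± 1.39 CPM without stress and 121.6 ± 15.9 CPM with stress (SD, n = 3), a log2 fold change of 0.50 (SE 0.0970, adjusted p = 0.0183), or 1.42-fold with a 95% confidence interval of 1.22 to 1.63. All 3 stressed libraries were above all 3 unstressed ones. Cnr1 was the only one of the 7 members called in males, where 3.32% of all tested genes were called. By the looser rule of the study, which asks for at least a 1.3-fold difference and p under 0.05 before adjustment, again only Cnr1 of the 7 passed, against 6.44% of all genes. The adjusted p rose to 0.0518, 0.0536 and 0.0818 without unstressed male replicate 2, unstressed male replicate 3 and stressed male replicate 2, in that order, and to 0.151 with the cortical markers as a term in the model (log2 fold change 0.37).

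In females no difference of Cnr1 with stress was called. Cnr1 stood at 125.8 ± 14.7 CPM in unstressed and 117.5 ± 12.2 CPM in stressed females (SD, n = 3), a log2 fold change of -0.10 (95% confidence interval -0.30 to 0.11, adjusted p = 0.948). None of the 7 members was called by limma in females, none had an unadjusted p under 0.05, and none was called by edgeR or DESeq2. Among all tested genes 0% were called by limma, with 786 of them at an unadjusted p under 0.05, 0 called by edgeR and 3 by DESeq2. By the rule of the study, 0 of 7 members passed against 1.73% of all genes.

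The difference between the stress effects, females minus males, was -0.60 for Cnr1 (SE 0.137, 95% confidence interval -0.89 to -0.30). Its unadjusted p was 0.000674 and its adjusted p 0.167, so that the effects in the sexes were not called different in this fit, in which 0.0269% of genes were. No member was called by limma or edgeR, 1 had an unadjusted p under 0.05, and DESeq2 called 1, which was Cnr1 in each case (DESeq2 adjusted p = 0.00498). By the rule of the study Cnr1 passed as the only one of the 7, against 4.42% of all genes.

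Without stress, Cnr1 was higher in females than in males. The log2 fold change was 0.55 (SE 0.0969, adjusted p = 0.0353), or 1.46-fold with a 95% confidence interval of 1.27 to 1.69, and all 3 female libraries were above all 3 male ones. This comparison shares the unstressed males with the comparison of stress in males, so the low values of the same 3 libraries enter both. Cnr1 was again the only member called, while 0.285% of all genes were called, and the only one to pass the rule of the study, which 5.31% of genes passed. The adjusted p rose to between 0.0645 and 0.119 without any 1 of the unstressed male libraries, to 0.145 without unstressed female replicate 3, to 0.0511 with scaling by library size alone, to 0.0527 with only these 2 groups in the fit, and to 0.933 with the cortical markers in the model (log2 fold change 0.40).

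With stress, Cnr1 did not differ detectably between the sexes. The log2 fold change was -0.05 (95% confidence interval -0.26 to 0.16, adjusted p = 0.853). Of the 7 members 0 were called by limma or edgeR in stressed mice, against 0.145% of all genes, 1 (Dagla) had an unadjusted p under 0.05 and was called by DESeq2 (adjusted p = 0.0424), and 0 passed the rule of the study, against 5.55% of all genes.

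**Figure D2:**
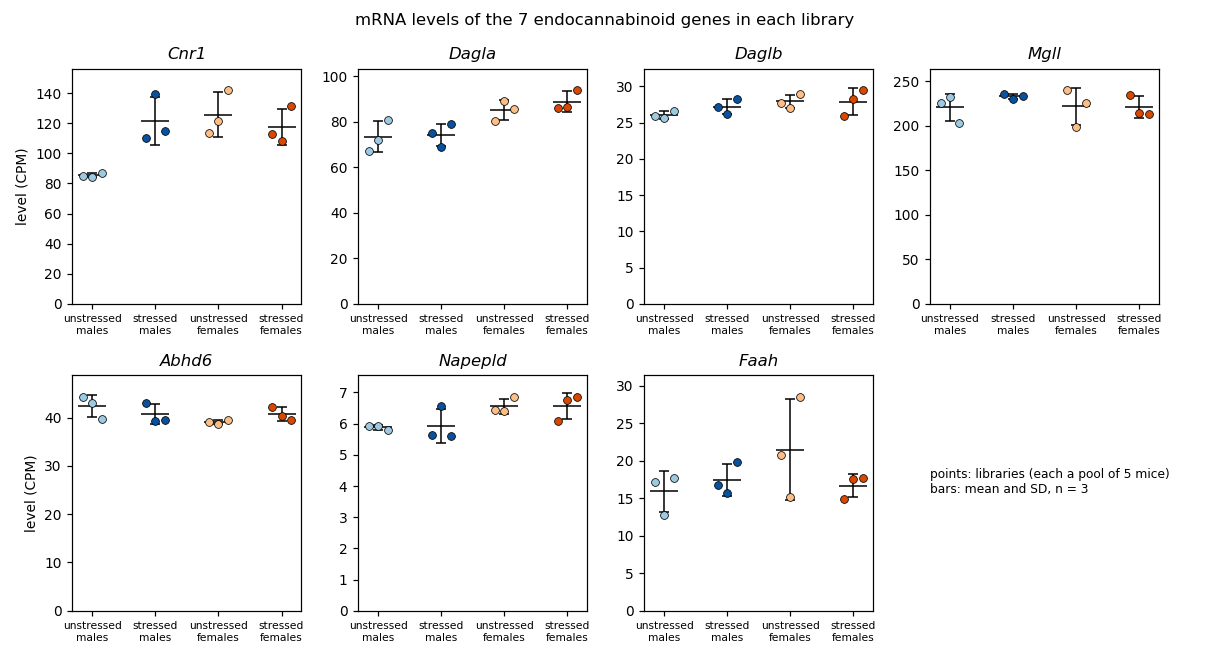
Level in CPM (axes from 0) of each of the 7 genes in the 12 libraries, with the mean and SD of each group of 3. Cnr1 is near 85.5 CPM in all 3 unstressed male libraries and above 108 CPM in all others, Dagla is higher in most female libraries, and Faah is spread widely among unstressed females.

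The level of Cnr1 moved together with the cortical markers in part. Across the 12 libraries, log2 CPM of Cnr1 and the log2 summed level of the 10 cortical markers had a Pearson r of 0.75, and 0.44 for the deviations from the group means. The points share libraries, depth and dissection. Unstressed female replicate 2, with a cortical sum of 50.7 CPM, inside the range of the unstressed males, had 121.6 CPM of Cnr1, above all 3 of them. Unstressed female replicate 1, with the second highest cortical sum of 296.2 CPM, had 113.6 CPM of Cnr1, the lowest of its group. Unstressed female replicate 3 was the highest library in both, with 419.6 CPM of cortical markers and 142.1 CPM of Cnr1. Each of these 3 is a single pool, and the cause of its level was not tested. In males all 3 stressed libraries were above all 3 unstressed ones in the cortical sum as in Cnr1. A further fit left out the 3 libraries whose cortical sum was over 200 CPM (stressed male replicate 3 and unstressed female replicates 1 and 3). The Cnr1 difference was then 0.55 in males and 0.49 between the unstressed sexes, with 1 unstressed female library left, assumed to vary like the others. The stressed males kept, at 75.8 and 172.9 CPM of cortical markers, were still above all unstressed males, at most 54.2 CPM. The fit therefore did not even out the cortical markers between the male groups. That fit was chosen after the marker levels had been seen. Markers of other cells also differed where Cnr1 did. Of 10 striatal projection neuron markers 9 were higher in stressed males and 3 had an unadjusted p under 0.05, but 0 were called. Their sums overlapped, at 5720 to 6606 CPM without and 6286 to 7085 CPM with stress. Between the unstressed sexes 6 of them were higher in females. Of 7 interneuron markers 5 were higher in unstressed females than males and 3 had an unadjusted p under 0.05, but 0 were called. In stressed males 5 of the 7 were higher, and 0 were called. There 2 had an unadjusted p under 0.05, of which Lhx6 was lower. Of 6 microglia markers 2 rose in stressed males, Cx3cr1 by 0.29 and P2ry12 by 0.39 on the log2 scale (adjusted p = 0.0405 and 0.0245), and the sums of the 6 were 236.9 to 252.7 CPM without and 264.5 to 293.2 CPM with stress, without overlap. Of 6 oligodendrocyte markers 0 were called between the unstressed sexes, 3 had an unadjusted p under 0.05 and 6 were higher in females, with sums of 4601 to 5145 CPM in males and 5250 to 5622 CPM in females. With stress in males all 6 were higher, 4 had an unadjusted p under 0.05 and 2 were called. The sums in stressed males were 5528 to 5559 CPM, above those of the unstressed males. The part of the striatal, interneuron, microglia and oligodendrocyte markers in the differences of Cnr1 was not tested.

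**Figure D3:**
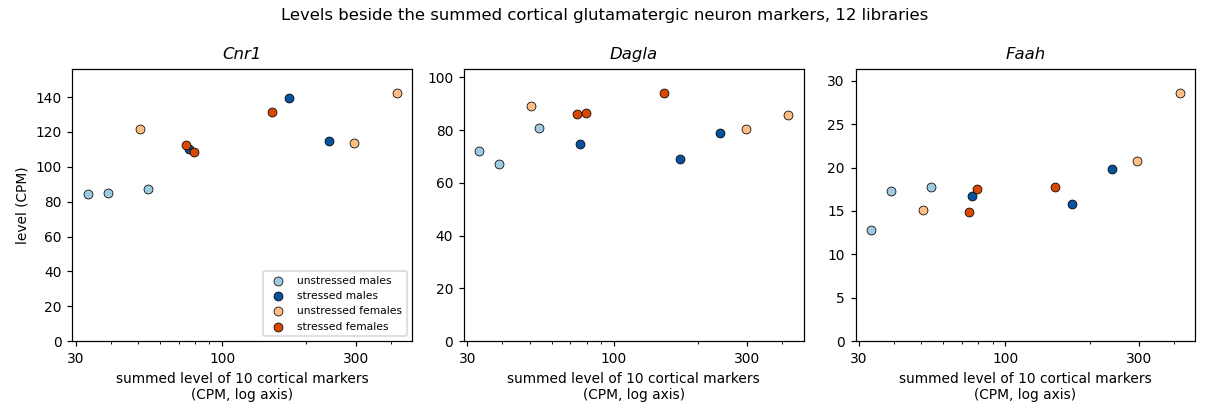
Levels of Cnr1, Dagla and Faah in CPM (linear axes from 0) against the summed level of 10 cortical glutamatergic neuron markers (CPM, log axis) in each of the 12 libraries. The unstressed female library at 50.7 CPM of markers is high in Cnr1 and in Dagla but not in Faah, whose 2 highest values, 28.5 and 20.7 CPM, are in the 2 libraries highest in markers.

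Genes whose level resembled that of Cnr1 were sought among 14434 other tested genes with a mean of at least 1 CPM. Over the 12 libraries the highest Pearson r of log2 CPM were those of Abi3bp (0.96), Scn8a (0.95), Large (0.95), Zfp238 (0.94) and Garnl3 (0.93). Scn8a encodes a voltage-gated sodium channel of neurons and Large a glycosyltransferase of dystroglycan. After subtraction of the group means other genes came first, namely Pgm3 (0.95), Gatc (0.95), Cdhr1 (0.91), Far2 (0.88) and Rcbtb2 (0.87). These lists are descriptions of 12 libraries that share dissection and depth.

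Dagla (ENSMUSG00000035735, chr19:10319755-10379367, minus strand), the lipase that makes most synaptic 2-AG in adult brain, differed with sex more than with stress. Unstressed males had 67.2, 72.2 and 80.9 CPM, and stressed males had 74.8, 69.1 and 78.8 CPM. Unstressed females had 80.3, 89.3 and 85.7 CPM, and stressed females had 86.04, 86.5 and 93.9 CPM. Stressed females lay above all stressed males, and of the 6 female libraries 5 were above all 6 male ones. The female minus male difference was 0.22 without stress (SE 0.0710, adjusted p = 0.169) and 0.26 with stress (SE 0.0713, adjusted p = 0.107), neither of them called. Stress was followed by differences of 0.02 in males and 0.06 in females, with 95% confidence intervals of -0.13 to 0.17 and -0.09 to 0.21.

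A sex difference averaged over stress was added after these values had been seen, and is no independent support for them. It was 0.24 for Dagla (SE 0.0503, adjusted p = 0.0249), or 1.18-fold with a 95% confidence interval of 1.09 to 1.27, and Dagla was the only one of the 7 called, while 5.06% of all tested genes were called. Of the 940 genes called, 877 were higher in females, which is also the direction of Dagla. Cnr1 had 0.25 in the same contrast (adjusted p = 0.0503). The adjusted p of Dagla was between 0.00208 and 0.110 over 20 alternatives, under 0.05 in 10 of them, and missed it without unstressed male replicate 1 or 2, stressed male replicate 1 or 2, unstressed female replicate 3 or stressed female replicate 2 or 3, with values from 0.0580 to 0.0926. Within groups Dagla and the cortical markers had an r of 0.0046, and with those markers in the model its difference was 0.23 (adjusted p = 0.110).

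Daglb (ENSMUSG00000039206, chr5:144225361-144265310, plus strand), the second diacylglycerol lipase, was among the most even members. Its 12 values ran from 25.6 to 29.5 CPM, with group means of 26.1 ± 0.530, 27.2 ± 1.02, 27.9 ± 0.930 and 27.9 ± 1.86 CPM in unstressed males, stressed males, unstressed females and stressed females (SD, n = 3). Its log2 fold changes were 0.06 with stress in males, 0.10 between the unstressed sexes and 0.04 between the stressed sexes, and the fold change with stress in females was 0.999 (95% confidence interval 0.918 to 1.09). The unstressed females, at 27.1 to 28.9 CPM, lay above the unstressed males, at 25.6 to 26.6 CPM, without overlap. This difference was not called, and the share of all tested genes without overlap there was not counted. Adjusted p lay between 0.429 and 0.998 over the 5 planned comparisons.

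Mgll (ENSMUSG00000033174, chr6:88674406-88778354, plus strand), the main hydrolase of 2-AG, did not differ detectably between groups despite being the deepest measured member, with 9347 to 12814 reads per library. Levels were 226.2, 232.4 and 203.2 CPM in males without stress and 235.2, 230.1 and 233.8 CPM in males with stress. Unstressed females had 240.3, 199.05 and 225.8 CPM, and stressed females had 235.02, 213.95 and 213.01 CPM. All 4 groups overlapped, and the unstressed females alone spanned the whole range of the 12 libraries. The difference with stress was 0.08 in males (95% confidence interval -0.07 to 0.23, adjusted p = 0.521) and -0.0043 in females (-0.15 to 0.15, adjusted p = 0.996). A stretch of 90 bases of Mgll exons overlaps Gm16628 on the opposite strand, whose reads cannot be told apart from those of Mgll without strand information.

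Abhd6 (ENSMUSG00000025277, chr14:8835416-8889069, plus strand), a membrane hydrolase that also cleaves 2-AG, had 44.3, 43.1 and 39.8 CPM in males without stress and 43.1, 39.4 and 39.6 CPM in males with stress. Unstressed females had 39.1, 38.6 and 39.5 CPM, and stressed females had 42.3, 40.3 and 39.4 CPM. The unstressed females lay just below the unstressed males without overlap, by 0.12 on the log2 scale (SE 0.0538, unadjusted p = 0.0463), and this was not called (adjusted p = 0.316). Its differences with stress were -0.06 in males and 0.06 in females, with adjusted p of 0.542 and 0.948.

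Napepld (ENSMUSG00000044968, chr5:21168719-21207214, minus strand), which releases anandamide and related amides from membrane lipids, had the fewest reads, 224 to 389 per library. Unstressed males had 5.93, 5.91 and 5.80 CPM, and stressed males had 5.64, 6.57 and 5.60 CPM. Female libraries were at 6.42, 6.42 and 6.84 CPM without stress and 6.10, 6.75 and 6.86 CPM with stress. The unstressed sexes did not overlap, with a difference of 0.16 (SE 0.0822, adjusted p = 0.386), and the stressed sexes overlapped, with a difference of 0.14 (adjusted p = 0.430). Differences with stress were 0.01 in males and 0.0028 in females, and neither group of stressed mice stood apart from its controls.

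Faah (ENSMUSG00000034171, chr4:115639750-115690531, minus strand), the hydrolase of anandamide, varied most of the 7 within each of the 2 unstressed groups (coefficient of variation 17.0% in males and 31.3% in females). Unstressed males had 17.2, 12.8 and 17.8 CPM, and stressed males had 16.8, 15.8 and 19.8 CPM. Unstressed females had 20.7, 15.2 and 28.5 CPM, a 1.88-fold range within the group, and stressed females had 14.9, 17.5 and 17.7 CPM. No comparison was called, the largest differences being 0.37 between the unstressed sexes (SE 0.186, adjusted p = 0.357) and -0.30 with stress in females (SE 0.187, adjusted p = 0.948). Of the 7 genes Faah followed the cortical markers most closely, with an r of 0.79 over the 12 libraries and 0.80 within groups. With these markers in the model the difference between the unstressed sexes turned to -0.21 and that with stress in males from 0.13 to -0.39, and without the 3 libraries over 200 CPM of cortical markers the former was -0.08. Without unstressed female replicate 2 alone, the difference between the unstressed sexes was 0.62 with an adjusted p of 0.0494.

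**Figure D4:**
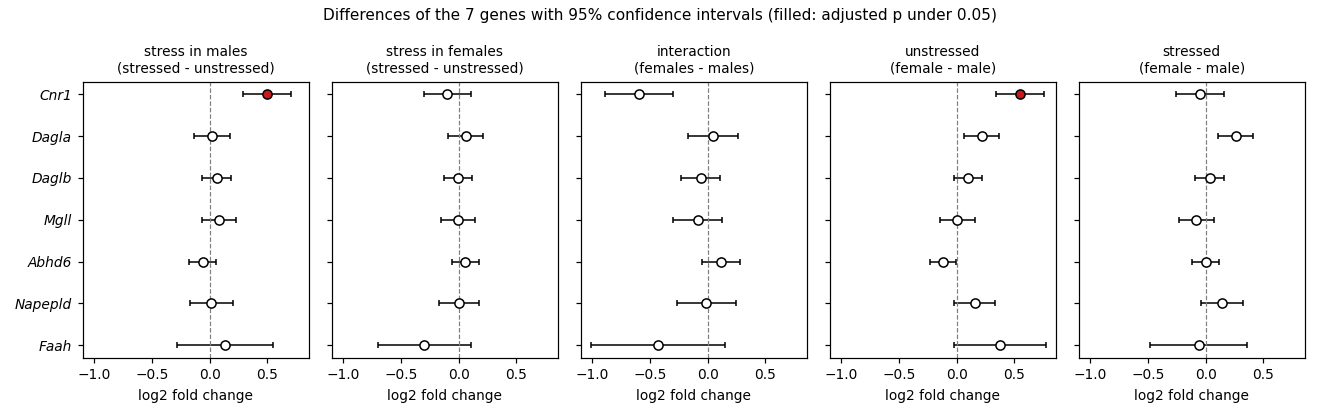
Log2 fold change with its 95% confidence interval for each gene (rows) in the 5 planned comparisons (panels), with filled points at an adjusted p under 0.05. Only Cnr1 is filled, at 0.50 with stress in males and at 0.55 between the unstressed sexes, and the intervals of Faah are the widest.

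The 7 genes are described as a group by counts and medians, without a test. With stress in males 6 of 7 differences were positive, with a median of 0.06 beside -0.01 over all tested genes, and in females 3 of 7 were positive, with a median of -0.0019 beside -0.0039. Between the unstressed sexes 6 of 7 were higher in females, with a median of 0.16 beside 0.0033 over all genes, and between the stressed sexes 4 of 7, with a median of 0.0011 beside 0.0055. Among the pairs of members, Daglb and Faah had the highest r of log2 CPM over the 12 libraries (0.69), followed by Dagla and Daglb (0.66) and Cnr1 and Napepld (0.64), and the last pair had the highest r within groups (0.77). The lowest r was that of Cnr1 and Abhd6 over the 12 libraries (-0.64) and that of Dagla and Mgll within groups (-0.64). The members of a pair share library, depth and dissection.

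Further genes of the pathway were taken from a list of 21 other receptors, synthesis and degradation enzymes and lipid carriers, 18 of which had enough reads. Gpr18, Gpr119 and Trpv1 did not, and Cnr2, the receptor of immune cells, stood at 0.487 to 0.841 CPM. Abhd12 and Gde1 were the most abundant per kilobase, with 74.8 and 74.7 CPM per kb, above Mgll, and Plcb1 followed with 39.9 CPM per kb. By the longest coding transcript Fabp5 (51.1 CPM per kb) stood above Plcb1 (49.5 CPM per kb). With stress in males 3 of the 18 rose and 1 fell, against 3.32% of all tested genes called, and 9 of 18 had an unadjusted p under 0.05, against 3992 of all 18593 genes. In females 0 of 18 were called by limma and 0 had an unadjusted p under 0.05. Between the unstressed sexes 1 of 18 was called, lower in females, against 0.285% of all genes, and 5 had an unadjusted p under 0.05, against 2859 of all genes. In the interaction and between the stressed sexes 0 of 18 were called by limma, with 7 and 4 of them at an unadjusted p under 0.05, against 1775 and 3058 of all genes. The list's median was 0.05 in males and 0.0097 in females.

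Plcb1, a phospholipase C that supplies diacylglycerol, the substrate of the diacylglycerol lipases, rose in stressed males. It had 308.4, 326.3 and 286.1 CPM in males without and 374.8, 416.7 and 339.8 CPM in males with stress, a difference of 0.29 (SE 0.0719, adjusted p = 0.0438). Abhd12, a further hydrolase that can cleave 2-AG, rose from 204.9, 201.3 and 186.6 CPM to 226.5, 229.4 and 218.8 CPM, a difference of 0.19 (SE 0.0467, adjusted p = 0.0462). Neither gene overlapped between stressed and unstressed males, and the share of all tested genes without overlap there was not counted.

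Fabp5 and Fabp7, carriers that bring anandamide through the cytosol to its hydrolase, went in opposite directions in stressed males. Fabp5 had 48.98, 47.3 and 39.9 CPM without and 60.6, 60.4 and 54.3 CPM with stress, a difference of 0.37 (SE 0.0792, adjusted p = 0.0269). Fabp7, a gene of astrocytes and radial glia, had 25.8, 24.5 and 21.3 CPM without and 18.7, 18.03 and 18.8 CPM with stress, a difference of -0.36 (SE 0.0847, adjusted p = 0.0361). Fabp7 was also lower in unstressed females, at 17.5, 15.4 and 15.6 CPM, by 0.56 on the log2 scale (SE 0.0847, adjusted p = 0.0192). The unstressed males were thus the high group for Fabp7 as they were the low group for Cnr1. Of 6 astrocyte markers 0 were called by limma in either comparison and 2 had an unadjusted p under 0.05 in each, with 5 of 6 at negative differences in stressed males and 3 of 6 in unstressed females. Gja1 had -0.16 in stressed males and -0.21 in unstressed females (unadjusted p = 0.0250 and 0.00547), Aqp4 had -0.18 in unstressed females (unadjusted p = 0.0307), and Slc1a2, which makes up most of the summed level, had 0.22 in stressed males (unadjusted p = 0.0190). The sums of the 6 were 3560 to 4191 CPM in unstressed males, 3930 to 4452 CPM in stressed males and 3648 to 4049 CPM in unstressed females. Of 6 oligodendrocyte markers 2 rose in stressed males, with sums of 4601 to 5145 CPM without and 5528 to 5559 CPM with stress, while 2 of 6 microglia markers rose as well. The part of the astrocyte, oligodendrocyte and microglia markers in the differences of the pathway genes was not tested. Pla2g4e and Ptgs2, named here after their values were seen, were not called in males but passed the rule of the study there, with 0.60 (adjusted p = 0.0903) and -0.53 (adjusted p = 0.0959). Pla2g4e also passed that rule in the interaction (-0.80, adjusted p = 0.336), between the unstressed sexes (0.40, adjusted p = 0.316) and between the stressed sexes (-0.40, adjusted p = 0.288).

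**Figure D5:**
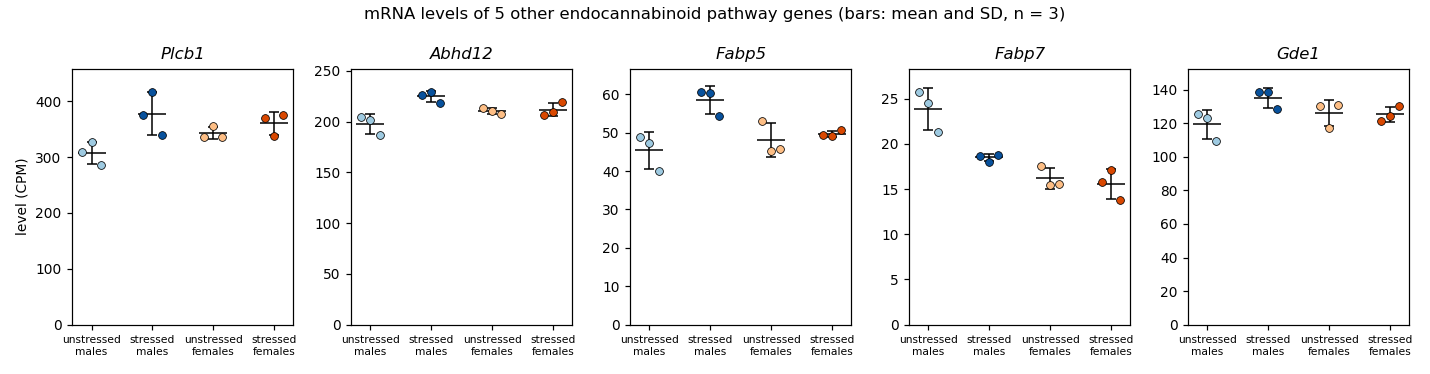
Level in CPM (axes from 0) of Plcb1, Abhd12, Fabp5, Fabp7 and Gde1 in the 12 libraries, with the mean and SD of each group of 3. In stressed against unstressed males the first 3 are higher and Fabp7 is lower, without overlap, and Gde1, an abundant gene of anandamide synthesis, did not overlap either but was not called.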

How the data were processed

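The mRNA of the NAc was measured in 12 libraries, 3 per group, with group and replicate number read from the sample titles. According to the methods of the study, the authors aligned reads with TopHat2 to NCBIM37 (Ensembl annotation) and used HTSeq for gene counts, which they deposited raw. The library kit does not mark strand, and tool versions are not given in the sources used here. Depth was 41076780 to 60867747 counted reads, and no 2 libraries held identical values. The small RNA counts were not used here.

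A gene was kept if over 5 reads were counted in 80% or more of the samples of any group, as in the study. Counts were scaled by TMM factors and fitted with voom and limma 3.58.1 in R 4.3.3, with 1 mean per group over all 12 libraries, and p-values were adjusted by Benjamini-Hochberg over all tested genes. The study's own design was the source of the filter, and its call rule is given beside the adjusted one. Pools are the replicates, so a limma p-value sets a group difference against the spread between pools. That spread was estimated over all 4 groups together and drawn toward that of other genes. How many of all tested genes did not overlap between 2 groups was not counted, so a lack of overlap is only described. Alternatives were edgeR 4.0.16 (quasi-likelihood), DESeq2 1.42.0, other scalings and filters, pairwise fits, a replicate block, a cortical marker covariate (10 genes) and leaving out each library. The steps were tested on simulated data.

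The 7 members, the gene lists and the comparisons were chosen with earlier results of these data known. All members were named, as were the pathway genes called in any comparison, the 3 pathway genes with the highest level per kilobase, and the 5 genes closest to Cnr1 by each of 2 measures of likeness. Coordinates are from GENCODE for NCBIM37, and log2 CPM used a prior count of 2. The plots used matplotlib.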

Additional observations from a re-analysis of the deposited data

How the results depend on the processing

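The calls of Cnr1 depended on single libraries and on the cortical markers, while its direction did not change in the comparisons where it was called. The number of members called with stress in males was 0 to 1 when 1 library was left out, and 0 with the cortical marker covariate. Between the unstressed sexes it was 0 to 2 when 1 library was left out, and 0 with library size scaling, with the cortical marker covariate, with only the groups compared and without the 3 libraries high in cortical markers (the last chosen after seeing the data). In the interaction it was 1 with DESeq2 and 1 by the rule of the study, and between the stressed sexes 1 with DESeq2 (Dagla) and 1 with the replicate block. For the sex difference averaged over stress, itself added after seeing the data, it was 2 with edgeR, DESeq2 and the replicate block, 0 with library size scaling, the cortical marker covariate and without the 3 libraries, and 0 to 2 when 1 library was left out. The cause of these moves was not tested.

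Same-numbered libraries deviated together weakly and unevenly. The correlation of their deviations was 0.030, 0.0058 and 0.35 between unstressed and stressed males and 0.11, 0.088 and 0.13 between unstressed and stressed females. Between groups of different sex it ran from -0.10 to 0.20. The numbers were not taken to pair the samples in the main fit, and whether they mark a shared source of spread was not tested. The replicate block added the call of Dagla between the stressed sexes (1 member called, adjusted p = 0.0222) and raised the genes called in that comparison from 27 to 837. It kept both calls of Cnr1 (adjusted p = 0.00920 in males and 0.00876 between the unstressed sexes), where it raised the genes called from 618 to 998 and from 53 to 562.

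Several differences that were not called changed sign, most of them near 0, but also those of Faah (0.37 between the unstressed sexes, -0.43 in the interaction and -0.30 with stress in females). With library size scaling Dagla and Napepld had -0.032 and -0.035 with stress in males, Napepld -0.014 with stress in females and 0.021 in the interaction, and Mgll -0.016 between the unstressed sexes. With the cortical marker covariate, Daglb, Napepld and Faah had -0.016, -0.037 and -0.39 with stress in males, Daglb and Mgll 0.028 and 0.018 in females, Daglb, Napepld and Faah 0.044, 0.058 and 0.28 in the interaction, Mgll and Faah -0.058 and -0.21 between the unstressed sexes, and Abhd6 and Faah -0.0096 and 0.067 between the stressed sexes. Without the 3 libraries high in cortical markers, Dagla had -0.020 with stress in males, Daglb, Mgll and Faah 0.052, 0.16 and 0.15 in females and 0.014, 0.074 and 0.11 in the interaction, Mgll and Faah -0.16 and -0.077 between the unstressed sexes, and Abhd6 and Faah -0.025 and 0.031 between the stressed sexes. With DESeq2, Daglb had 0.0051 with stress in females, Mgll -0.0018 between the unstressed and Abhd6 -0.014 between the stressed sexes. With DESeq2 size factors in limma, Daglb and Mgll had 0.0042 and 0.0017 in females, Mgll -0.0031 between the unstressed and Abhd6 -0.013 between the stressed sexes. Without the filter, Daglb and Mgll had 0.0016 and 0.0028 in females and Mgll -0.0031 between the unstressed sexes. With only the groups compared, Mgll had -0.0051 between the unstressed and Abhd6 -0.0090 between the stressed sexes, where Abhd6 had -0.00036 with edgeR.

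Leaving out 1 library at a time gave ranges across 0 for Dagla (-0.034 to 0.096) and Napepld (-0.059 to 0.062) with stress in males, for Daglb (-0.044 to 0.050), Mgll (-0.079 to 0.061) and Napepld (-0.029 to 0.053) with stress in females, for Dagla (-0.031 to 0.10) and Napepld (-0.052 to 0.064) in the interaction, for Mgll between the unstressed sexes (-0.064 to 0.081), and for Cnr1 (-0.13 to 0.043), Daglb (-0.0065 to 0.087), Abhd6 (-0.036 to 0.034) and Faah (-0.15 to 0.032) between the stressed sexes.

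The share of genes called higher also moved with scaling: 276 of 618 with stress in males against 207 of 900 with library size scaling, 32 of 53 against 13 of 39 between the unstressed sexes, and 23 of 27 against 12 of 16 between the stressed sexes. With 3 pools per group, differences as small as those of Daglb, Mgll, Abhd6 and Napepld could not be separated from the spread between pools.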
